A study of Homo sapiens with 2 samples.

Results

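The shared promoter of LRRC41 and UQCRH on human chromosome 1 carried 1 of the 14471 ZFX peaks found in DAOY cells, a long-established line grown from a human medulloblastoma, a tumour of the cerebellum. It was the peak overlapping an 11 kb window around the starts of the 2 genes, and no second peak lay in that window. The locus was selected on the score of its peak, the largest of the list, so its score, width and ranks are given below as a description and were not tested. The study held 2 samples of DAOY cells grown under the same culture conditions and given no treatment named in the labels. One was the ZFX precipitate, obtained from sonicated chromatin with a rabbit polyclonal antibody (1 library). The other was input, the same kind of chromatin left unprecipitated (1 library), for which no values were analysed here. A single ZFX library gives no check between replicates, and read depth is unknown, so no error can be given for a single peak.

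ZFX, a transcription factor with zinc fingers whose gene is X-linked, is known to bind the promoters of many active genes and to take part in the self-renewal of stem cells. LRRC41 (also MUF1) encodes a leucine-rich repeat protein that serves as a substrate-binding part of a cullin-based ubiquitin ligase. UQCRH encodes the hinge protein of respiratory complex III, the small acidic subunit known from structures to sit beside cytochrome c1, where electrons pass to cytochrome c. The 2 genes are read in opposite directions from neighbouring starts, an arrangement called a head-to-head or bidirectional promoter, so that a factor bound between them lies upstream of both. No expression was measured in this study, and nothing here shows which of the genes ZFX acts on.

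The promoter windows of both genes are shown because they hold the sequence over which the peak crosses the starts. Each runs from 250 bases before to 50 bases after the start in RefSeq on GRCh38.p14, 5′ to 3′ on the strand of its gene. UQCRH lies on the plus strand (chr1:46303448-46303747) and LRRC41 on the minus strand (chr1:46303567-46303866). Capitals mark the 81 bases between the 2 starts, which appear in both sequences as reverse complements of each other. In all, the 2 windows share 181 bases, so they are not separate sequences.
UQCRH: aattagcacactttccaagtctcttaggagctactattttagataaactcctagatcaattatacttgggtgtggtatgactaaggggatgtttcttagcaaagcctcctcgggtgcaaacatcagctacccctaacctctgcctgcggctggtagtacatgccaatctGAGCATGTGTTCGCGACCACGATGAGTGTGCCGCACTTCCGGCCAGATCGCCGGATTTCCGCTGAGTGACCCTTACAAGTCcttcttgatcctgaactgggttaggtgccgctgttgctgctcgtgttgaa
LRRC41: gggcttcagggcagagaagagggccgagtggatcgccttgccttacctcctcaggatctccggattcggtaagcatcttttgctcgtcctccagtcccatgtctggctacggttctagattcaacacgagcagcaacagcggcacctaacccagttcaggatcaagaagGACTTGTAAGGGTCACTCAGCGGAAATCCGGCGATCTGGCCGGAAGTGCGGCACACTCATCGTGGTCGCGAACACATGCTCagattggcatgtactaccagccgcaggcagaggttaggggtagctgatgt

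The peak covered both starts and lay mostly inside LRRC41. It ran over chr1:46767065-46769619 on hg19, the build of the deposited positions, and was 2555 bp wide. On hg19 the starts were taken at 46769280 for LRRC41 and at 46769380 for UQCRH, 100 bp apart, positions that came with the definition of the locus and not from an annotation of that build. From the LRRC41 start the peak reached 2215 bp into LRRC41 on its left side. From the UQCRH start it reached only 239 bp into UQCRH on its right side. Of the peak's bases, 2216 (86.7%) lay at or downstream of the LRRC41 start, 99 (3.87%) between the starts and 240 (9.39%) at or downstream of the UQCRH start. The part in LRRC41 was thus 9.23 times as long as the part in UQCRH.

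**Figure D1:**
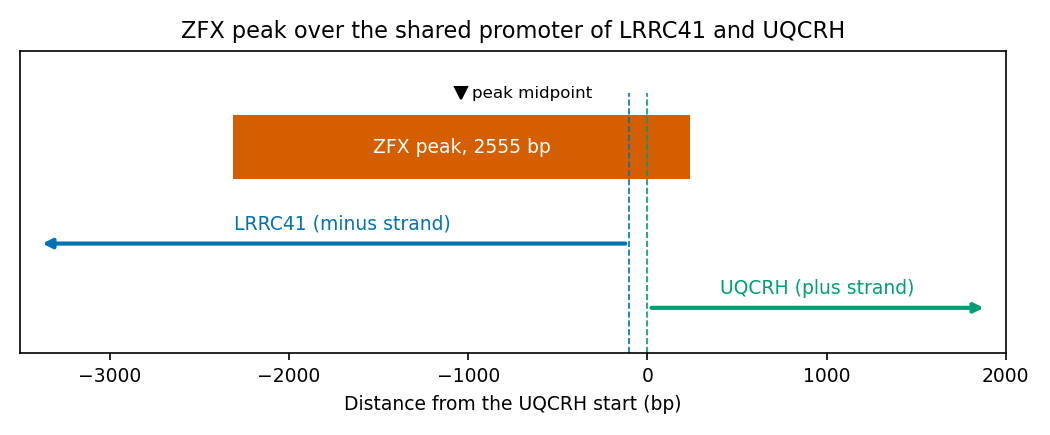
Position of the ZFX peak (orange bar) against the starts and directions of LRRC41 (blue) and UQCRH (green), as distance from the UQCRH start in bp on hg19. The dashed lines mark the starts, 100 bp apart, and the triangle marks the peak's midpoint, which lies 938 bp inside LRRC41.

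The middle of the peak was not at the shared promoter. Its midpoint, 46768342, lay 938 bp inside LRRC41 and 1038 bp from the UQCRH start. The file gives no summit, so where within the 2555 bp the enrichment was highest is not known. Windows of 250 bases before to 50 bases after each hg19 start fell wholly inside the peak and together took up 401 bp, or 15.7% of it. Most of the peak therefore lay outside the sequence printed above. In the RefSeq table on GRCh38.p14 the starts were 82 bp apart in place of 100 bp, a spacing that differed by 18 bp between the sources. Positions were not converted between the builds, so how far either start differed was not measured. The peak reached at least 239 bp beyond either hg19 start on both sides.

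By score, the authors' own value for each peak, the LRRC41 and UQCRH peak was first of 14471. It scored 3233.06, against a median of 108.9 and a lowest value of 50 in the list. The peaks just below it scored 3230.05 on chromosome 17 and 3154.07 on chromosome 7. After these came 28 peaks that all had the score 3100, and the next value below was 3046.92. The unit of the score is not stated in the sources used here. If the score were a p-value on a negative log10 scale multiplied by 10, the smallest number that double-precision arithmetic can hold would score 3233.06, and 2 times that number would score 3230.05. These are the first and the second value of the list to 2 decimals. The lowest value of the list, 50, would be a round p-value on that reading. The LRRC41 and UQCRH peak would then stand at the end of the scale that can be computed. How 28 peaks came to share the round value 3100 is not stated, and on that reading they could rank ahead of it. Its first rank therefore does not show it to be stronger than those 28 peaks. What the order does give is a place among the 31 peaks (0.214% of the list) at or above 3100, of which 5 lay on chromosome 1.

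The LRRC41 and UQCRH peak was wider than most of those 31. With 2555 bp it was the second widest of them, after a peak of 9036 bp on chromosome 21 (chr21:9825383-9834418). The third was a peak of 2265 bp on chromosome 2 (chr2:85197346-85199610). The median of the 31 was 1219 bp, so the LRRC41 and UQCRH peak was 2.10 times as wide, and the narrowest, the chromosome 17 peak that scored 3230.05, had 449 bp. The other 4 peaks at or above 3100 on chromosome 1 were 1083, 1041, 608 and 551 bp wide. The peak over LRRC41 and UQCRH was 2.36 times as wide as the widest of these 4.

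**Figure D2:**
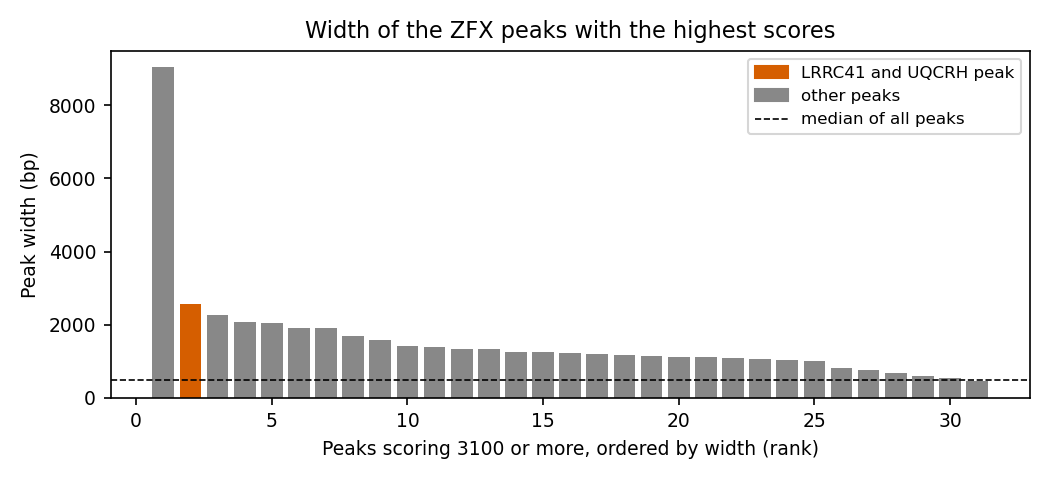
Width in bp of the 31 ZFX peaks scoring 3100 or more, ordered from widest to narrowest, with the LRRC41 and UQCRH peak in orange and the other peaks in grey. The dashed line is the median width of all 14471 peaks, 481 bp; the LRRC41 and UQCRH peak is second with 2555 bp.

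In the whole list the LRRC41 and UQCRH peak had rank 13 by width, and rank 4 among the 1635 peaks on chromosome 1. When peaks at most 1 kb apart were joined into regions, it had rank 128. It was 5.31 times as wide as the median peak of 481 bp, and 0.0898% of all peaks were as wide or wider. The 12 wider peaks lay on 7 chromosomes and scored between 138.2 and 3100, with a median of 994, and only the chromosome 21 peak among them reached 3100. The 3 wider peaks on chromosome 1 scored 975.65, 552.24 and 1068.38. The last of these, 2582 bp wide at chr1:45272456-45275037, lay on the same arm and differed from the LRRC41 and UQCRH peak by 27 bp in width.

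Peaks of like width had a broad range of scores. That all were lower was fixed in advance, since the locus was selected for the largest score of the list. The 5 peaks next above and the 5 next below it in width had 2476 to 3013 bp, and their scores ran from 66.02 to 2695.59 with a median of 838. None of these 10 reached 3100. Of the 58 peaks of 2000 bp or more, 5 scored 3100 or above, the LRRC41 and UQCRH peak among them, and their median score was 955. Across all peaks, which are not independent replicates, width and score rose together (Spearman's rho = 0.840, a description of this list). Both measures come from the same library and the same list.

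**Figure D3:**
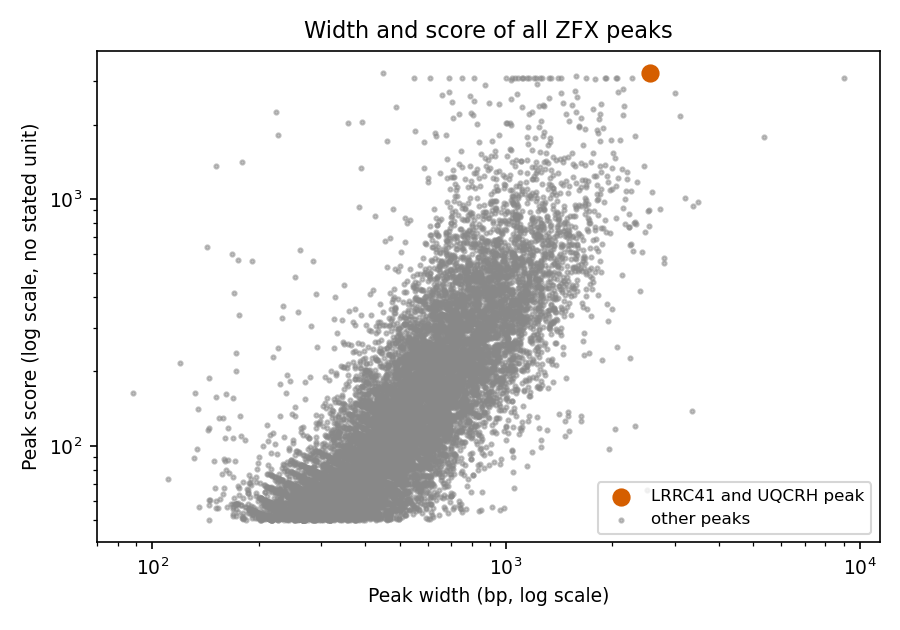
Width in bp and score of each of the 14471 ZFX peaks, both on log axes, with the LRRC41 and UQCRH peak in orange and the other peaks in grey. The LRRC41 and UQCRH peak (2555 bp, 3233.06) lies at the top, just above the row of 28 peaks at 3100. The 12 wider peaks lie to its right.

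The peak stood alone over both genes. On the LRRC41 side the next peak (chr1:46663594-46664569, score 427.5) ended 104.7 kb from the LRRC41 start, and LRRC41 itself is 26155 bp long in the RefSeq table on GRCh38.p14. On the UQCRH side the next peak (chr1:46806100-46806376, score 78.31) began 36.7 kb from the UQCRH start, and UQCRH is 13079 bp long in that table. By these lengths neither gene held another peak, at its far end or along its body. In the same table LRRC41 overlaps RAD54L, a gene of homologous recombination, at its far end, and the next protein-coding gene beyond UQCRH is NSUN4, which encodes a mitochondrial RNA methyltransferase, 24030 bp away. By these lengths the near end of NSUN4 lies at about the distance of the peak 36.7 kb from the UQCRH start. No nearby peak was assigned to either gene, since positions were not converted between the builds.

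The 4 nearest peaks on each side are given by score and distance. That all scored lower follows from how the locus was selected. On the LRRC41 side they scored 427.5, 75.74, 64.76 and 552.09 and ended 105 to 552 kb away. On the UQCRH side they scored 78.31, 56.55, 177.81 and 51.12 and began 36.7 to 229 kb away. The LRRC41 and UQCRH peak scored 5.86 times as high as the best of the 8, although a ratio of scores without a stated unit is not a ratio of binding. The widest of the 8 had 1172 bp.

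**Figure D4:**
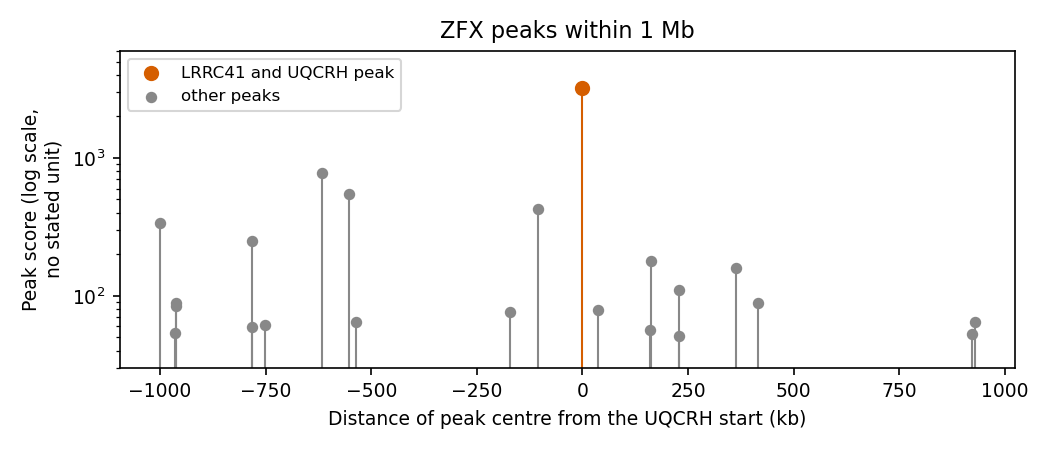
Score on a log axis of each ZFX peak with its midpoint within 1 Mb of that of the LRRC41 and UQCRH peak, against its distance in kb from the UQCRH start on hg19. The LRRC41 and UQCRH peak (orange) scores 3233.06, and the 21 other peaks (grey) score at most 773.

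The number of peaks in the surroundings was near the middle of the list over 1 Mb and lower over 100 kb. Within 1 Mb of the peak's midpoint lay 21 other peaks, against a median of 19 around all peaks of the list, and 44.6% of all peaks had more. The median score of the 21 was 84.9 and the highest 773, so none reached 1000. The LRRC41 and UQCRH peak alone made up 19.1% of the length covered by peaks in that stretch. Within 100 kb lay 1 other peak, against a median of 2 around all peaks, and 64.5% of all peaks had more.

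The distance to the nearest peak, 36.5 kb, was also larger than the median of 14.4 kb over the list, and 34.8% of peaks stood farther from their neighbour. Among the 31 peaks at or above 3100, 14 stood farther apart and 9 had another peak within 1 kb. Of the 12 wider peaks, 4 had a neighbour within 1 kb and 4 stood farther from their neighbour than the LRRC41 and UQCRH peak did. The stretch from the peak before to the peak after measured 141.5 kb.

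The core AGGCCT, which ZFX is known to bind and which is its own reverse complement, did not occur in either promoter window. The same held for the longer form AGGCCTG on both strands. AGGCCT occurred in 10.9% of the 35116 windows of 300 bases in the RefSeq table and in 10.8% of the 22199 windows of protein-coding genes, so a window without it is the common case. It says only that these letters are not in the sequence printed above, which spans about the same part of the locus as the 15.7% of the peak given earlier.

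Of the motifs of other promoter factors, 2 occurred once each, and both matches were shared by the windows of the 2 genes. CCGGAA, read by ETS factors, lay between the starts (chr1:46303653-46303658 on GRCh38.p14), spelled forward in the LRRC41 window from position -42 and as its reverse complement in the UQCRH window from position -45, counted back from each start. It occurred in 21.2% of windows of protein-coding genes. CCAAT, read by NF-Y, lay from position -88 in the UQCRH window, which is position 3 within LRRC41 counted from its start (chr1:46303610-46303614), on the opposite strand. It occurred in 34.7% of such windows. GGGCGG of Sp factors, present in 56.3% of such windows, was in neither promoter on either strand. A core motif of 10 bases for NRF1, a factor known for genes of the respiratory chain, was in neither promoter and in 1.5% of such windows. One of the same length for YY1 was in neither and in 1.68% of such windows.

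In base composition both windows lay below the middle of promoters. G and C made up 49.7% of the UQCRH window and 56.3% of the LRRC41 window, against a median of 62.3% over windows of protein-coding genes. The UQCRH window was richer in G and C than 19.0% of those windows, and the LRRC41 window richer than 31.9%. CpG dinucleotides numbered 12 in the UQCRH window and 17 in the LRRC41 window, against a median of 21. They were densest between the starts and fewest on the LRRC41 side. The 81 bases between the starts held 8 CpG at 59.3% G and C, and the 169 bases on the UQCRH side of the LRRC41 window held 8 at 55.6%. On the LRRC41 side, the 169 bases of the UQCRH window that lie within LRRC41 held only 2 at 44.4%. The peak extended farther on that side, where these bases are a small part of the 2216 bp it covered.

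The starts of LRRC41 and UQCRH were closer than the median of head-to-head genes. Among the RefSeq windows, 978 pairs of protein-coding genes had starts facing away from each other at most 1000 bp apart, which took in 1935 genes or 12.2% of the 15843 with a window there. Their median distance was 175 bp. LRRC41 and UQCRH, 82 bp apart in that table, were among the 186 pairs (19.0%) at that distance or closer. The windows of genes in such pairs had a median of 64.0% G and C, above both members. They held AGGCCT in 10.1% and CCGGAA in 35.6% of cases. Which of these pairs lie under ZFX peaks was not analysed here.

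**Figure D5:**
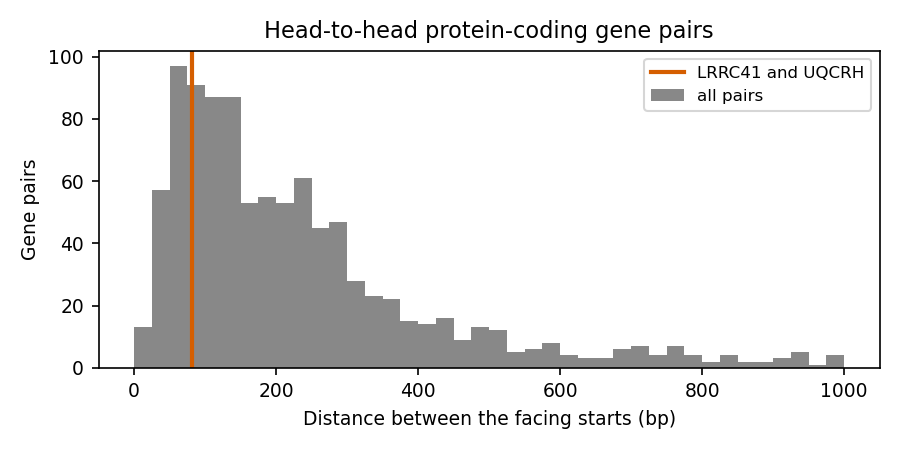
Number of head-to-head protein-coding gene pairs by the distance between their starts in bp, in steps of 25 bp, from the RefSeq table on GRCh38.p14. The orange line marks LRRC41 and UQCRH at 82 bp, below the median of 175 bp over the 978 pairs.

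The other nuclear-encoded subunits of complex III were looked at by sequence only. Windows were at hand for 7 of the 9 genes listed, namely UQCRH, the core proteins UQCRC1 and UQCRC2, the Rieske iron-sulfur protein UQCRFS1, and the small subunits UQCRQ, UQCR10 and UQCR11, and not for CYC1 and UQCRB. AGGCCT was in none of the 7, against 10.8% of windows of protein-coding genes. UQCRH shared CCGGAA with UQCR11, UQCRFS1 and UQCRQ and CCAAT with UQCR10 and UQCRC2. GGGCGG, which UQCRH lacked, occurred in UQCR11, UQCRC1 and UQCRFS1. The YY1 motif occurred in UQCRC1, and the NRF1 motif in none of the 7. The 7 windows are too few to set these counts against all promoters, and peaks at the other 6 genes were not analysed here.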

How the data were processed

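Chromatin from DAOY cells was precipitated with an anti-ZFX antibody, and unprecipitated chromatin served as input, per the labels' protocols. Bowtie2 2.0.0 and hg19 are listed in the submitters' processing notes, with no role stated. MACS appears in the peak names of the deposited list, which has no header. Its version and settings, and whether the input was its control, are not stated in what was used here. The authors deposited 1 score per peak without a stated unit. It was used to describe and rank peaks within the list.

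Starts were taken as counted from 0 and are printed counted from 1. Peaks sharing 1 base or more with the window were kept. Ranks, distances and neighbour counts were computed in Python 3.11.15 with numpy 2.4.6, pandas 2.3.3 and scipy 1.17.1, with figures in matplotlib 3.10.9. Motifs were searched on both strands of RefSeq promoter windows on GRCh38.p14, of which 5191 of 27305 genes have more than 1; positions were not converted between builds. Head-to-head pairs were counted once per gene pair. The functions were tested on simulated data.

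Genes and peaks named are the members, the genes next to them, complex III subunits, the nearest peaks, and the peaks closest in width or highest in score. Values for UQCRHL, also on the list, were not analysed here. The members, lists and motifs were chosen with earlier results of these data known. No p-value was computed.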

Additional observations from a re-analysis of the deposited data

How the results depend on the processing

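Of 22 alternatives for 8 results, 12 were counted as unchanged, which for ranks, counts and shares of promoter windows means within 1.5 times the reported value. For the width of the peak and its share on the LRRC41 side, any difference was counted as a change. The locus held 1 peak under all 5 alternatives tried. None of these could bring in another peak, since the nearest lay 36.5 kb away. The filter on scores could not remove the highest score. The rank of the peak by score stayed first in 3 alternatives. That was fixed in advance, since the locus was selected for the largest score of the list, so these 3 are no check. The rank was 31 when values at or above 3100 were tied and the lowest shared rank was taken. Its rank by width was 128 when peaks at most 1 kb apart were joined, which makes regions wider by construction, and 4 within chromosome 1. Starts counted from 1 gave a width of 2556 bp. Peaks within 1 Mb of the midpoint of the starts numbered 22, with the LRRC41 and UQCRH peak counted, 2 within 100 kb and 9 among peaks above the median score. The share of the peak on the LRRC41 side was 88.7% when divided midway between the starts, 86.7% at the LRRC41 start and 90.6% at the UQCRH start. AGGCCTG occurred in 6.88% of windows, and 542 gene pairs had starts at most 200 bp apart. The last 2 are narrower by construction. No paired analysis was possible because each group has 1 library and no test was run. Depth is unknown, so weak sites near the locus that were missed cannot be counted.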
